A study of Homo sapiens with 8 samples.

Results

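The carbonic anhydrase family was examined in total RNA of Hct116 cells, an established human colorectal carcinoma line, through the 9 genes CA1, CA2, CA4, CA5B, CA8, CA9, CA11, CA12 and CA13. The members were taken by gene symbol from a table of 23459 genes, around CA2, whose protein the study lists among those with a raised ratio of newly made to old protein. This listing rests on the study's single time point analysis of Hct116 cells. Its analysis across all samples, which joined Hct116 with HEK293T cells, gave a smaller change for CA2 in the same direction. Its half-life analysis, made in HEK293T cells only, lists CA2 as no hit. All 9 symbols were found. RNA came from 4 replicates with lenalidomide at 30 μM and 4 with DMSO, its solvent, each collected after 16 h. Lenalidomide is a thalidomide derivative that binds CRBN, the substrate receptor of a ubiquitin ligase. In the study's protocol the medium was exchanged at the time of treatment for one with heavy arginine and lysine, in both treatments, with label swaps among the replicates, and the same cultures also served mass spectrometry; which RNA library came from a swap is not given. All libraries come from a single line. The replicates are called biological in the series record and in the study's figure of the RNA data. The methods call those of the matching mass spectrometry experiment technical. The p-values then measure only the spread between these samples, which may be technical. In bulk RNA, fewer cells that express a gene and less of its RNA per cell cannot be told apart.

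Carbonic anhydrases interconvert carbon dioxide and bicarbonate with release or uptake of a proton, and so link respiration, ion transport and pH. Active members bind a catalytic zinc ion and differ mainly in where they work. CA1, CA2 and CA13 are cytosolic, CA5B is mitochondrial, and CA4, CA9 and CA12 face the outside of the cell, CA4 by a lipid anchor and CA9 and CA12 by a transmembrane segment. CA8 and CA11 have the fold but lack the zinc-binding residues and catalytic activity. In the normal colon, CA1, CA2 and CA4 are known as genes of mature surface colonocytes, and CA9 is a classical target of the hypoxia-inducible factors (HIF).

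Promoter sequences are shown for CA9 and CA12, the surface members with very unequal RNA levels, and for CA5B. These 3 of the 9 members had an entry in the RefSeq promoter table, built on GRCh38.p14. Each window covers 250 bases before and 50 bases from the RefSeq start and was found once in GRCh37, whose coordinates are given. Capitals mark the HIF core letters ACGTG or GCGTG, searched on both strands.
CA9: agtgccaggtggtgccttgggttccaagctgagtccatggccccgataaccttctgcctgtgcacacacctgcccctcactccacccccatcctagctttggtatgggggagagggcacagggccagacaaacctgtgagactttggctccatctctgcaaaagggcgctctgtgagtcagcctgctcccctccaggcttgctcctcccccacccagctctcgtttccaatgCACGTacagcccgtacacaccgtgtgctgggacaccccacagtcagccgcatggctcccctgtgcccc
CA12: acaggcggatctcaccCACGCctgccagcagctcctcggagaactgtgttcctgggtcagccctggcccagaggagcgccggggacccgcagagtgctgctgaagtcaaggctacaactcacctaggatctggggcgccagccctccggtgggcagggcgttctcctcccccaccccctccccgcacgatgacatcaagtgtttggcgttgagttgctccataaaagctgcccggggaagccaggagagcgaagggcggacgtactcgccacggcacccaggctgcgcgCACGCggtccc
CA5B: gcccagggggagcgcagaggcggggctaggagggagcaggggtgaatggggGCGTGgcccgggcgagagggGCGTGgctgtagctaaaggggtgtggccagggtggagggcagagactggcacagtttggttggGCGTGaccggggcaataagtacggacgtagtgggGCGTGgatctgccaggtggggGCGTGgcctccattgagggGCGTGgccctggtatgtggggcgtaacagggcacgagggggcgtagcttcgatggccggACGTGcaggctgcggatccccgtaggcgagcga
The CA9 window is chr9:35673675-35673974 on the plus strand, the CA12 window chr15:63673996-63674295 on the minus strand and the CA5B window chrX:15756143-15756442 on the plus strand. CA9 held 1 match, at base 233 of the window. CA12 held 2 matches, at bases 17 and 290. CA5B held 7, of which 6 were GCGTG. A match to either was present in 48.4% of the 35116 promoters of the same length. The CpG dinucleotide occurred 7 times in the CA9 window, 22 times in that of CA12 and 23 times in that of CA5B, where the median over all promoters was 14. CA9, the member of the 3 with the fewest CpG, was also the one with almost no RNA in these cells. These are descriptions of 3 windows and were not tested against expression.

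Library totals ran from 28218471 to 37473413 counts, and the 4 lenalidomide libraries were all smaller than the 4 DMSO libraries. Of 10 colon epithelial markers 6 had a mean of at least 1 CPM (the count scaled to a common library size with TMM factors) in both treatments, namely EPCAM, CDH1, KRT8, KRT18, KRT19 and CDX2. VIL1, CDX1, CEACAM5 and LGALS4 had at most 0.0411 CPM. Red cells are rich in CA1 and CA2, and 12 red cell markers were therefore examined. Their sum was 54.0 to 67.5 CPM with DMSO and 54.6 to 64.5 CPM with lenalidomide, nearly all from HBG2, with a mean of 59.2 and 58.4 CPM. HBA2, HBG1 and AHSP had 0 counts in all libraries and HBB had 1 in all. The exonic width listed for HBG2 was 1979 bases, against 584 for HBG1 and 626 for HBB. Which exons gave the counts of HBG2 was not examined. The 11 blood and stromal markers summed to 3.27 to 3.83 CPM with DMSO and to 2.96 to 4.70 CPM with lenalidomide.

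CA2 was the dominant carbonic anhydrase transcript per length. Levels between genes are given as RPKM, the CPM per kilobase of the exonic width listed for each gene. With DMSO, CA2 had 10.5 ± 0.959 RPKM (SD, n = 4), against 2.39 ± 0.107 for CA11, 2.27 ± 0.234 for CA13, 1.06 ± 0.0436 for CA12, 0.645 ± 0.0781 for CA5B and 0.459 ± 0.0178 for CA8 (SD, n = 4 each). CA2 was thus 4.40 times the next member by mean RPKM, with 3.67 to 5.07 times in single libraries. CA11 and CA13 were not separated, since their DMSO ranges overlapped and each was ahead in 2 of 4 libraries. Every other step of this order from CA2 down to CA8 was free of overlap between neighbours over the 4 DMSO libraries. The same order of these 6 members was found with lenalidomide, again with overlap for CA11 and CA13 alone.

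**Figure D1:**
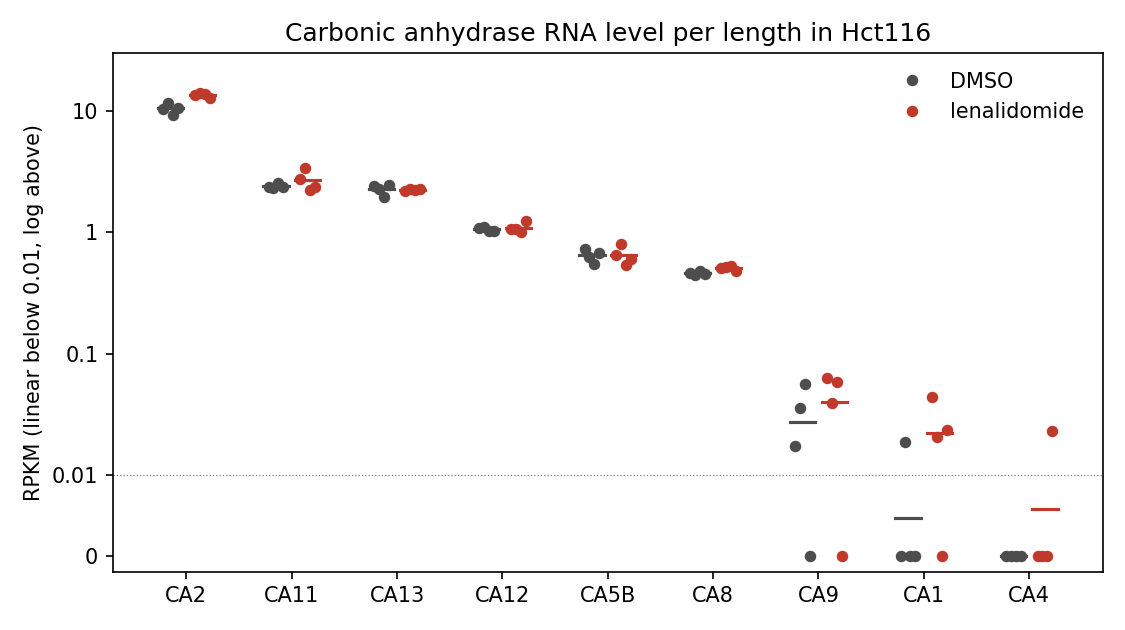
RNA level per length of the 9 members in the 8 libraries, as RPKM on an axis that is linear below 0.01 and logarithmic above. Points are libraries (grey DMSO, red lenalidomide) and bars are means of 4. CA2 lies above every other member in all libraries, 6 members lie above 0.4 RPKM, and CA9, CA1 and CA4 lie below 0.1 RPKM with points at 0.

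In each library CA2 took most of the RPKM summed over the 9 members. Its share was 60.5% ± 1.94 (SD, n = 4) with DMSO and 65.1% ± 1.90 with lenalidomide, with libraries from 58.6% to 63.2% and from 63.2% to 67.7%. Arranged by role, the active cytosolic members held 73.5% of the sum with DMSO, the members without catalytic activity 16.5%, the active surface members 6.25% and mitochondrial CA5B 3.71%. With lenalidomide these shares were 76.1%, 15.3%, 5.52% and 3.10%. The surface share came almost entirely from CA12.

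CA9, CA1 and CA4 were close to the detection limit and were not tested, because they had too few counts for the filter. CA9 had 1, 2, 3 and 0 counts in DMSO replicates 1 to 4 and 3, 2, 3 and 0 in lenalidomide replicates 1 to 4. Pooled over libraries this is 0.0411 CPM (exact Poisson 95% interval 0.0151 to 0.0896) with DMSO and 0.0636 CPM (0.0275 to 0.125) with lenalidomide, so that no difference was detectable at this depth. CA1, abundant in red cells and colonocytes, had 1 count in all DMSO libraries and 4 in all lenalidomide libraries. CA4 had 0 counts with DMSO, which allows up to 0.0206 CPM (3 counts over the 4 libraries), and 1 count with lenalidomide. These intervals and limits cover counting error only. In the GENCODE annotation the exons of CA9 overlap those of ARHGEF39 on the other strand, so that a few of its counts may belong to that gene.

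CA2 (GRCh37, chromosome 8, 86376197 to 86393722, plus strand) has exons that overlap those of no other gene in the GENCODE annotation. CA2 encodes the widely expressed cytosolic isozyme of very high catalytic rate. Its level was 17.4, 19.5, 15.5 and 17.6 CPM in DMSO replicates 1 to 4 and 22.3, 23.2, 23.0 and 21.2 CPM in lenalidomide replicates 1 to 4. The lowest lenalidomide library was 1.76 CPM above the highest DMSO library, and the groups did not overlap. The mean was 1.28 times that with DMSO (95% confidence interval 1.15 to 1.43), a log2 fold change of 0.36 (standard error 0.073). The difference did not pass the threshold over all genes tested (unadjusted p = 0.000234, adjusted p = 0.362, quasi-likelihood test of edgeR on 13925 genes, higher in 4 of 4 libraries). It passed with DESeq2 (adjusted p = 0.0260) and with the likelihood ratio test of edgeR (adjusted p = 0.0164), at log2 fold changes of 0.35 and 0.36, with higher values in 4 of 4 libraries. The lenalidomide libraries were the smaller ones, and with all libraries thinned to the smallest total the log2 fold change was 0.37. A two-sided exact permutation test of the CPM values of this gene alone gave p = 0.0286, the smallest p that 4 libraries against 4 allow.

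**Figure D2:**
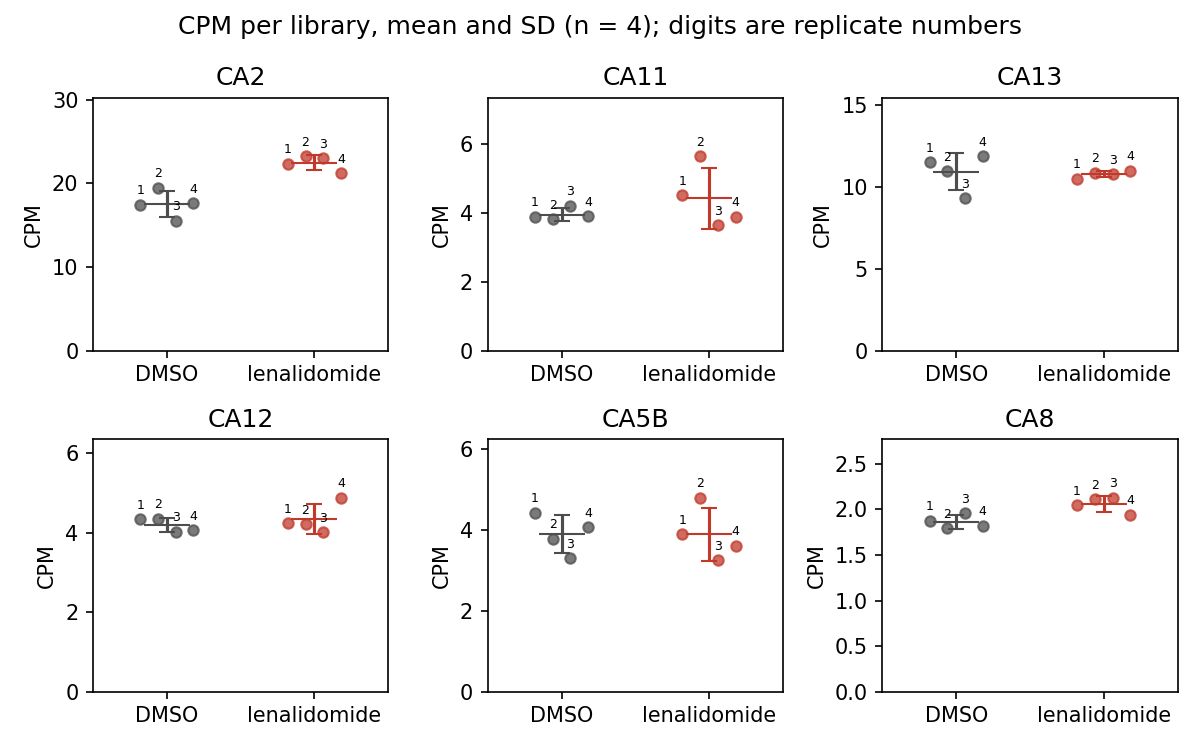
CPM of the 6 members tested in each library, with the mean and SD of 4 libraries per treatment; small digits are replicate numbers and every axis starts at 0. The lenalidomide libraries of CA2 lie between 21.2 and 23.2 CPM, above the DMSO libraries at 15.5 to 19.5 CPM, whereas the groups overlap for the other 5 members.

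Of the 6 members tested, 0 passed an adjusted p of 0.05 with the quasi-likelihood test of edgeR, which called 0.0144% of all genes. An unadjusted p under 0.05 was reached by 1 member, CA2, and by 4.18% of all genes. CA2 was also the only member to have all lenalidomide libraries above all DMSO libraries in CPM, a pattern found in 1.24% of all genes. The median log2 fold change was 0.096 over the 6 members and 0.0025 over all genes tested. By unadjusted p, CA2 ranked 9 of 13925. Of 3898 genes with a mean between 10 and 40 CPM, 21 including CA2 had a log2 fold change at least as high. Leaving out single libraries, the log2 fold change of CA2 ran from 0.30 without DMSO replicate 3 to 0.41 without DMSO replicate 2, and its unadjusted p from 9.44e-05 to 0.00110.

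CA13 and CA1 are neighbours of CA2 in the same cluster, which spans 260907 bases from the start of CA13 to the end of CA2 and also holds CA3. CA13 (chromosome 8, 86132816 to 86196302, plus strand) encodes another active cytosolic isozyme. In the GENCODE annotation its exons overlap those of ENSG00000258256 on the other strand. The level of CA13 was 11.5, 11.0, 9.32 and 11.9 CPM with DMSO and 10.5, 10.9, 10.8 and 11.0 CPM with lenalidomide. The lenalidomide libraries fell within the DMSO range. The log2 fold change of CA13 was -0.018, with a 95% confidence interval from -0.20 to 0.16. The upper limit corresponds to a fold of 1.12, below the 1.28 estimated for CA2. CA1 (chromosome 8, 86239837 to 86291243, minus strand) lies between both and was close to 0, as described above. The genes of this cluster thus had very unequal levels in the same libraries, at 10.5 RPKM for CA2, 2.27 for CA13, 0.143 for CA3 and 0.00469 for CA1 with DMSO.

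CA12 (chromosome 15, 63613577 to 63674045, minus strand) encodes the main surface isozyme by RNA in these cells. It had 4.34, 4.36, 4.03 and 4.07 CPM with DMSO and 4.25, 4.22, 4.01 and 4.89 CPM with lenalidomide. Only lenalidomide replicate 4 was above the DMSO range, and the groups overlapped. The log2 fold change was 0.046 (95% confidence interval -0.17 to 0.27). Mitochondrial CA5B (chromosome X, 15706953 to 15806534, plus strand) had 4.42, 3.78, 3.30 and 4.07 CPM with DMSO and 3.89, 4.80, 3.25 and 3.61 CPM with lenalidomide. Both groups spread widely and overlapped, and the log2 fold change was -0.0020 (95% confidence interval -0.29 to 0.29). In the GENCODE annotation its exons overlap those of the pseudogene CA5BP1 on the same strand and of INE2 on the other. Reads could be shared if the exons used for counting overlap too, which was not examined. CA5BP1 itself was at 1.17 and 1.25 CPM with DMSO and lenalidomide. The RefSeq promoter window of CA5B lies inside the GENCODE span of the gene, downstream of its GENCODE start. The fold of CA12 was at most 1.20 and that of CA5B at most 1.22 by the upper confidence limits.

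CA8 and CA11 are the members without catalytic activity. CA8 (chromosome 8, 61097971 to 61193959, minus strand) encodes a protein that binds the IP3 receptor ITPR1. It had 1.87, 1.79, 1.96 and 1.82 CPM with DMSO and 2.04, 2.11, 2.13 and 1.94 CPM with lenalidomide. The lenalidomide libraries of CA8 were above the DMSO range in 3 of 4 cases, and the log2 fold change was 0.15 (95% confidence interval -0.13 to 0.42), or 0.061 with libraries thinned to the smallest total. CA11 (chromosome 19, 49141203 to 49149444, minus strand), a secreted relative, had 3.88, 3.81, 4.21 and 3.91 CPM with DMSO and 4.51, 5.64, 3.65 and 3.88 CPM with lenalidomide. The DMSO libraries were close together, whereas the lenalidomide libraries spread from 3.65 to 5.64 CPM, with replicate 2 the highest. The log2 fold change of CA11 was 0.16 (95% confidence interval -0.12 to 0.45), and its GENCODE exons overlap those of SEC1P on the other strand. It was 0.022 without lenalidomide replicate 2 and 0.052 with thinned libraries. A fold of 1.28, the estimate for CA2, lay within the intervals of CA8 and CA11 and outside those of CA12, CA13 and CA5B. The interval of CA2 itself, 1.15 to 1.43, overlapped those of CA12 and CA5B, which reached 1.20 and 1.22. This comparison is therefore no test of a difference between members. For these 5 members the adjusted p was 0.999 each by the quasi-likelihood test of edgeR, with log2 fold changes from -0.018 to 0.16 and 0 to 3 of 4 lenalidomide libraries above the DMSO range.

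**Figure D3:**
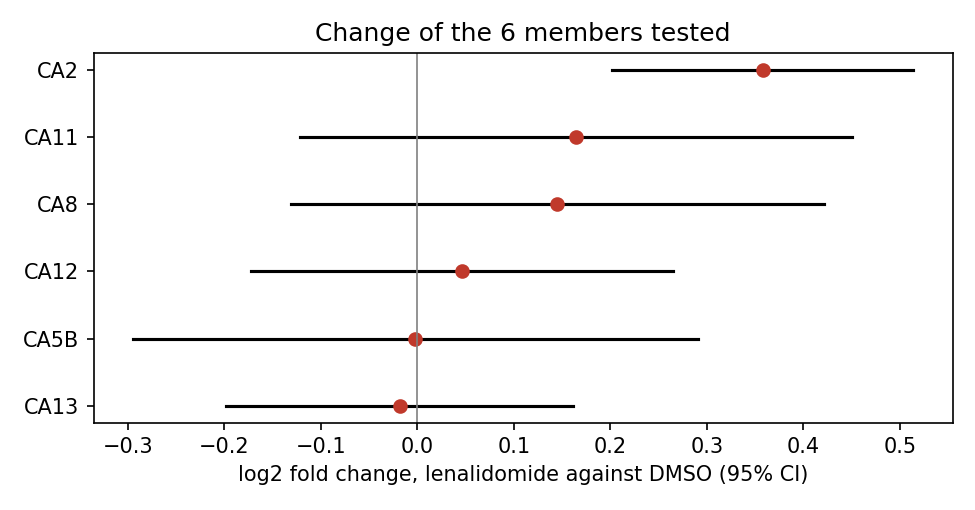
log2 fold change of lenalidomide against DMSO for the 6 members tested, with 95% confidence intervals from the quasi-likelihood fit. The interval of CA2, 0.20 to 0.51, lies above 0, and the intervals of the other 5 members include 0.

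Whether CA2 differed from its relatives was asked with the count ratio of CA2 to each other member within a library, which does not depend on scaling between libraries. The log2 ratio of CA2 to CA13 was 0.68 ± 0.12 with DMSO and 1.06 ± 0.071 with lenalidomide (SD, n = 4 each), a difference of 0.37 without overlap (two-sided exact permutation test, p = 0.0286, and 0.0714 adjusted over the 5 ratios computed). The difference of the ratio to CA5B was 0.37, that to CA12 was 0.32 and that to CA8 was 0.22, each with 3 of 4 lenalidomide libraries above the DMSO range (exact permutation p = 0.0571 each, 0.0714 adjusted over the 5 ratios). The ratio to CA11 differed by 0.22 (exact permutation p = 0.257, also after adjustment). All 5 differences were in favour of CA2, but they share its counts, and 0 of 5 passed after adjustment.

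**Figure D4:**
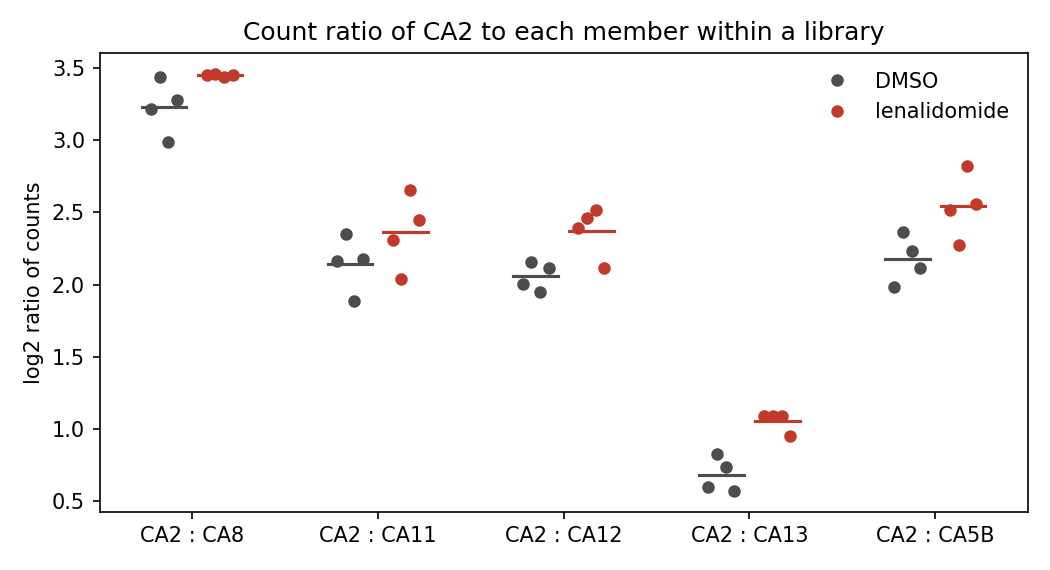
log2 ratio of CA2 counts to the counts of each other member tested, by library (grey DMSO, red lenalidomide; bars are means of 4). The ratio to CA13 is 0.57 to 0.82 with DMSO and 0.95 to 1.09 with lenalidomide, and the groups overlap in the other ratios.

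The genes most like CA2 across the 8 libraries were LMBRD1, ALDOC and AKAP7, chosen for the highest Pearson r of log2 CPM among all genes tested. LMBRD1, which encodes a lysosomal protein of cobalamin export, had r = 0.97 and Spearman's rho = 0.90. ALDOC, a glycolytic aldolase, had r = 0.96 and rho = 0.95. AKAP7, an anchoring protein of protein kinase A, had r = 0.96 and rho = 0.88. These are maxima over 13925 genes in libraries of only 2 treatments and are given as a description. LMBRD1 was the only gene of the 3 to pass (log2 fold change 0.78, adjusted p = 0.00456, quasi-likelihood test of edgeR, all 4 lenalidomide libraries higher), with 0.37 for ALDOC and 0.27 for AKAP7. For the other members tested, r ran from 0.14 for CA5B to 0.66 for CA8, and rho from -0.19 for CA13 to 0.64 for CA8. That these lie below the 3 genes follows from how the 3 were chosen.

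Genes that handle bicarbonate and protons beside the carbonic anhydrases gave 0 calls at an adjusted p of 0.05, in either direction and in every list, with the quasi-likelihood test and the likelihood ratio test of edgeR and with DESeq2. Of 15 bicarbonate transporters 8 were tested, and their log2 fold changes ran from -0.041 to 0.098 with a median of 0.021. SLC4A7, a sodium bicarbonate cotransporter and the most abundant of them in CPM, was at 128 ± 8.36 CPM in DMSO and 127 ± 9.46 CPM in lenalidomide libraries (SD, n = 4 per treatment). SLC26A6, an anion exchanger and the one with the smallest p, had a log2 fold change of 0.098 (95% confidence interval -0.16 to 0.36). Of 19 proton and lactate exporters and their chaperones 12 were tested, with a median of -0.021. SLC16A1, the lactate and proton carrier MCT1, was at 321 ± 15.4 CPM in DMSO and 315 ± 24.7 CPM in lenalidomide libraries (SD, n = 4 per treatment). SLC9A5, a sodium proton exchanger, had the smallest p of this list, with a log2 fold change of 0.28 (95% confidence interval -0.045 to 0.60).

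The 9 enzymes that consume bicarbonate were all tested, with a median log2 fold change of 0.035. ACACA, the acetyl-CoA carboxylase of fatty acid synthesis, had the smallest p and the highest level, at 273 ± 20.8 CPM in DMSO and 321 ± 48.0 CPM in lenalidomide libraries (SD, n = 4 per treatment), and the groups overlapped. Its log2 fold change was 0.23 (unadjusted p = 0.0235, adjusted p = 0.999, quasi-likelihood test of edgeR). Of 10 oxygen sensing genes 9 were tested, with a median of -0.021. HIF1A RNA was abundant, at 365 ± 17.9 CPM in DMSO and 359 ± 7.69 CPM in lenalidomide libraries (SD, n = 4 per treatment), while CA9 was close to 0. EPAS1, which encodes HIF-2 alpha, was at 23.4 ± 1.99 CPM in DMSO and 26.9 ± 1.98 CPM in lenalidomide libraries (SD, n = 4 per treatment). The log2 fold change of EPAS1 was 0.20 (unadjusted p = 0.0155, adjusted p = 0.999, quasi-likelihood test of edgeR), and the groups overlapped. The 3 IP3 receptor genes had log2 fold changes from 0.094 for the CA8 partner ITPR1 to 0.12 for ITPR2. ITPR3, the most abundant of them, was at 249.4 ± 16.8 CPM in DMSO and 269.2 ± 17.9 CPM in lenalidomide libraries (SD, n = 4 per treatment), and the groups overlapped. In these 5 lists an unadjusted p under 0.05 was reached by 2 of 9 bicarbonate-using enzymes, 2 of 9 oxygen sensing genes and 0 genes of the other lists. Over all genes 4.18% had one, 454 of them higher and 128 lower with lenalidomide. The 4 genes of the lists, ACACA, EPAS1 and, named after their values were seen, CAD of pyrimidine synthesis and the HIF asparagine hydroxylase HIF1AN, were higher on average with lenalidomide but overlapped between treatments. The counts of these enzymes and oxygen sensing genes rest on single libraries. Without lenalidomide replicate 4 both were 0, with log2 fold changes of 0.14 for ACACA, 0.12 for CAD, 0.15 for EPAS1 and 0.19 for HIF1AN. The count of the enzymes was also 0 without DMSO replicate 1, DMSO replicate 2 or lenalidomide replicate 3, and that of the oxygen sensing genes was 1 without DMSO replicate 1 or lenalidomide replicate 3. It was 3 without DMSO replicate 3 or lenalidomide replicate 1. The gene added was VHL, which was lower with lenalidomide (log2 fold change -0.14 in both fits). Among the markers, 0 of 6 colon epithelial, 0 of 1 red cell and 0 of 2 blood and stromal genes tested had an unadjusted p under 0.05.

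**Figure D5:**
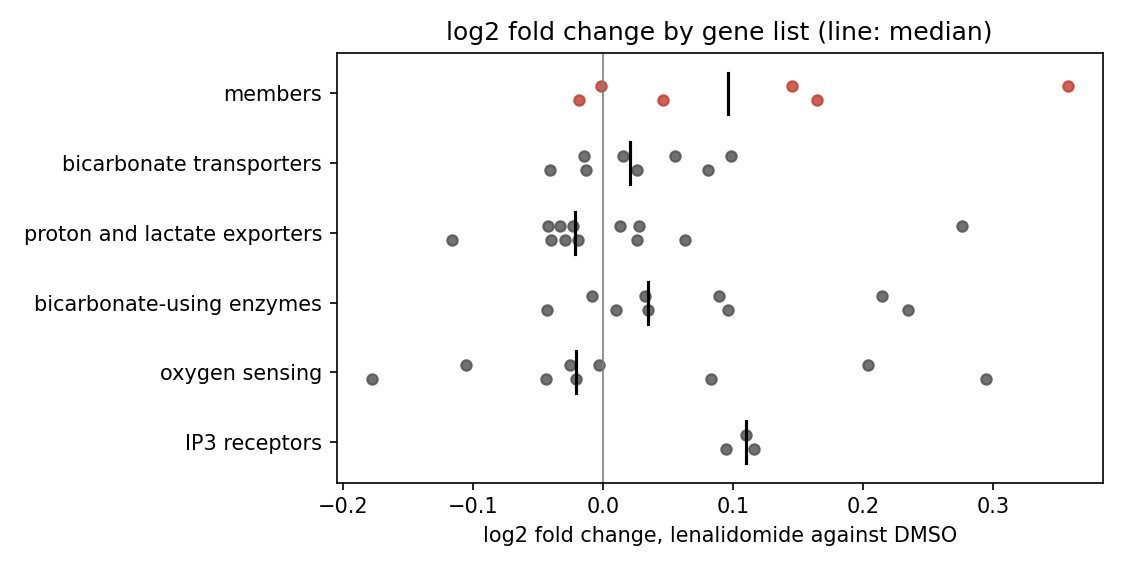
log2 fold change of lenalidomide against DMSO for the members (red) and for genes of 5 lists of bicarbonate and pH handling, oxygen sensing and IP3 receptors (grey); each point is a gene and the black line is the median of the list. CA2, at 0.36, has the highest value shown, and the medians lie between -0.021 and 0.11.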

How the data were processed

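Total RNA was read with ScriptSeq v2 libraries and Illumina sequencing. Spliced alignment to hg19 and counting over UCSC known genes were done by the authors with QuasR, and the deposited values are raw counts per gene beside its exonic width. No strand setting beyond the defaults is given. Each of the 8 columns was assigned to its sample by title.

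R 4.3.3, edgeR 4.0.16 and DESeq2 1.42.0 were used. filterByExpr (minimum count 10, minimum total 15) left 13925 genes. Libraries were scaled by TMM factors from 0.971 to 1.02. Treatments were compared by the edgeR quasi-likelihood test over all 8 samples, with Benjamini-Hochberg adjustment over all genes tested and a threshold of 0.05. Standard errors and intervals come from the coefficient and its F statistic. RPKM values use the deposited width. Depth was 28218471 to 37473413 counts, and counting intervals are at 95%. Counts of 12 pairs of libraries of the same treatment differed beyond sampling noise (chi-square per degree of freedom 5.55 to 24.1), and each library was counted as a replicate.

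Members, gene lists and alternatives were chosen with earlier results of these data known. Named are all members, the 3 genes most like CA2, and of each list the gene with the smallest p and the one with the highest mean CPM. As alternatives, DESeq2, RLE scaling, the likelihood ratio test, keeping every gene with 1 count, a filter of 10 counts in every library, thinning to the smallest library, a replicate block and leaving out each library were tried. Positions and exon overlaps are from GENCODE on GRCh37, the build of the alignment. The counts were made over UCSC known genes, whose exons may differ from these.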

Additional observations from a re-analysis of the deposited data

Results flagged for a closer look

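Of 48 groups of 4 values examined, over the members tested and the other genes named, 3 held a library standing apart, and chance flags about 1 in 20 groups. No group of a carbonic anhydrase was among them. DMSO replicate 2 had 2.81 CPM of SLC9A5, the other DMSO libraries 2.16 to 2.27 CPM. For SLC16A1, lenalidomide replicate 3 had 351 CPM and the others of its treatment 297 to 306 CPM. For EPAS1, DMSO replicate 1 had 26.3 CPM and the other DMSO libraries 22.1 to 22.6 CPM. The cause was not tested.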

How the results depend on the processing

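The count of members past an adjusted p of 0.05, 0 with the quasi-likelihood test of edgeR, was 1 (CA2) with DESeq2 and 1 (CA2) with the likelihood ratio test, and 0 with the other 5 alternatives and in all 8 fits without one library. Over the whole table the count of 2 genes became 9 with DESeq2, 12 with the likelihood ratio test, 4 with no filter beyond 1 count and 6 with the replicate block, and was 1 to 2 with each library left out. The log2 fold change of CA2 stayed between 0.30 and 0.41, with adjusted p from 0.0164 with the likelihood ratio test to 0.998 without DMSO replicate 1 (unadjusted p there 0.00110). Of the members, CA5B, CA12 and CA13 changed sign. With thinned libraries CA5B was at 0.11, CA12 at 0.098, CA8 at 0.061, CA11 at 0.052 and CA13 at -0.035. With one library left out CA5B ran from -0.12 to 0.076, CA12 from -0.013 to 0.082, CA13 from -0.090 to 0.025, CA8 from 0.13 to 0.17 and CA11 from 0.022 to 0.25. Of the 90 alternative values of the 6 members, 80 kept direction and side of the threshold, 2 passed it and 8 changed sign. Genes of the other lists gave 0 calls in each alternative.

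The numbers of the replicates gave no clear pairing of the samples, with correlations of deviations of 0.028, -0.024, 0.031 and 0.27 for numbers 1 to 4. Unlike numbers gave -0.29 to 0.17, so that the value for number 4 was the highest, and pairing is not excluded. With the replicate block CA2 had a log2 fold change of 0.36 and an adjusted p of 0.0996 by the quasi-likelihood test of edgeR. As 4 pairs allow no exact p under 0.125, the ratio of CA2 to CA13, 0.37, could not pass there (exact p = 0.125). The ratio to CA8 differed by 0.31 with thinned libraries (exact permutation p = 0.0286). With one library left out, the differences of the log2 ratio ran from 0.33 to 0.42 for CA13, 0.14 to 0.29 for CA8, 0.12 to 0.33 for CA11, 0.27 to 0.40 for CA12 and 0.28 to 0.46 for CA5B. Without length scaling, the share of CA2 in the family was 41.3% with DMSO and 46.7% with lenalidomide. With one library left out the length-scaled share was 59.6% to 61.1% and 64.3% to 65.8%. CA8, CA11, CA12 and CA5B had 56 to 187 counts per library, and their confidence intervals of the log2 fold change reached up to 0.29 to either side. The cause of these differences between alternatives was not tested.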

Other observations

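Of 8 further carbonic anhydrase genes looked up, 7 were in the table. CA5A, the liver-type mitochondrial isozyme, and CA7 had 0 counts in all libraries, and CA6, the secreted salivary isozyme, had 1 count with DMSO and 3 with lenalidomide. CA10 had 2 counts with DMSO and 7 with lenalidomide, the 7 all in lenalidomide replicate 4. CA14, another transmembrane isozyme, had 17 counts with DMSO and 10 with lenalidomide, and CA3, the muscle isozyme between CA1 and CA2, had 37 and 39. The pseudogene CA5BP1 was the highest of them, with 1.17 RPKM with DMSO and 1.26 RPKM with lenalidomide. These values were above the 0.645 and 0.644 RPKM of CA5B itself, but rest on listed widths of 994 and 6032 bases. In CPM the order was the reverse, with 1.17 and 1.25 for CA5BP1 against 3.89 in both treatments for CA5B. In GENCODE the exons cover 2409 bases for CA5BP1 and 8522 for CA5B and overlap on the same strand. Of these 7 genes 2, CA3 and CA5BP1, were tested and 0 passed.

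Per length, the bicarbonate exchanger SLC4A2, with 18.9 RPKM, and the cotransporter SLC4A7, with 14.9 RPKM, were above CA2 with DMSO, at 10.5 RPKM. Among the lactate carriers SLC16A1 had 55.3 RPKM and SLC16A3 had 19.6 RPKM, and their chaperone BSG had 71.2 RPKM. SLC26A3, the chloride and bicarbonate exchanger of mature colonocytes, had 0.0071 RPKM, and the low values of CA1, CA4 and SLC26A3, all known as mature colonocyte genes, were thus found in the same libraries in which CA2 was well above them.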
